A study of Mus musculus with 2 samples.

Results

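Prostanoid synthesis and transport were described through 7 of the 31055 genes counted, chosen by symbol: the cyclooxygenases Ptgs1 and Ptgs2, the synthases Ptgis and Ptges, the transporter Slco2a1 and the receptors Tbxa2r and Ptger4. Each was present by that symbol in both libraries. The libraries are droplet-based 3′ single-cell RNA sequencing of endothelial cells sorted from orthotopic tumors, 1 library from KPC tumors (a mouse pancreatic cancer line) and 1 from PyMT tumors (a line from MMTV-PyMT mammary tumors). All mice were wild-type female C57BL6 animals aged 6 weeks that received 100000 tumor cells, and the tumors were digested 10 days later. There was no tumor-free tissue and no treated or mutant group, the number of mice behind a library is not given in the sources used here, and each tumor line is a single model grown in its own organ. With 1 library per model no test was possible and no p-value is given. The intervals are exact, cover 95%, and account for counting error only. Tumor model, organ and library preparation cannot be told apart.

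Prostanoids are short-lived lipid signals. A cyclooxygenase turns arachidonic acid into prostaglandin H2, and terminal synthases turn this into prostacyclin (Ptgis, prostacyclin synthase), prostaglandin E2 (Ptges, the inducible microsomal synthase) or thromboxane. Slco2a1 is the prostaglandin transporter, which takes prostaglandins up into cells for breakdown, and Tbxa2r and Ptger4 are the receptors for thromboxane A2 and prostaglandin E2. In blood vessels these lipids control tone, platelet aggregation, permeability and leukocyte entry.

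The libraries held 44441942 and 55547926 unique molecular identifiers (UMIs, which count each captured transcript once). A filter on low gene number (500) and high mitochondrial share (10%) kept 9591 of 10236 KPC barcodes and 11744 of 12464 PyMT barcodes, with medians of 2958 and 3805 UMIs over all barcodes. Of the kept barcodes, 151 sequences occurred in both libraries. Cells were put into 9 classes by sums of marker UMIs. The 5 endothelial classes held 1297 capillary, 640 venule, 105 artery, 1302 tip and 802 lymphatic cells in KPC and 2597, 360, 126, 1991 and 633 in PyMT, and 42.6% of KPC and 47.7% of PyMT cells met no class rule. Venule, artery, tip and lymphatic classes each had the highest summed level of their own further markers in both libraries. The capillary class had the highest sum of its own among the 5 endothelial classes, but in PyMT narrowly. There its further capillary markers summed to 2451 CPM (UMIs per 1000000 UMIs of the class), against 2297 in tip and 2109 in venule cells. Some single markers went the other way in KPC. Dll4 and Kcne3 were higher in artery than in tip cells. Vwf was higher in artery, and Nr2f2 in lymphatic, than in venule cells. Epithelial markers went against the tumor label of the Krt8 plus Krt18 class in PyMT, where Epcam, Krt19, Krt7, Cldn4 and Cdh1 summed to 40.7 CPM against 4558 CPM in KPC. That class is therefore called Krt8/Krt18 cells. The KPC pericyte class carried 2237 CPM of pan-endothelial markers and is mixed, and the PyMT fibroblast and pericyte classes held only 28 and 27 cells. Podoplanin-positive cells were depleted before the sort, per the methods, and its gene Pdpn is among the further lymphatic markers. The lymphatic class is therefore what that depletion left. The part of this selection in the lymphatic levels and ratios below was not tested.

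The gene positions are those of GENCODE M21 on GRCm38. Ptgs1 lies on chromosome 2 at 36230426 to 36252272 (plus strand), Ptgs2 on chromosome 1 at 150100031 to 150108227 (plus), and Ptgis on chromosome 2 at 167191805 to 167240604 (minus). Ptges lies on chromosome 2 at 30889471 to 30929863 (minus), Slco2a1 on chromosome 9 at 102988712 to 103096002 (plus), Tbxa2r on chromosome 10 at 81328731 to 81335172 (plus), and Ptger4 on chromosome 15 at 5206661 to 5244187 (minus). Exons of Ptger4 overlap those of Ttc33 on the opposite strand, which had 2578 UMIs in both libraries together. The strand setting of the counting is not given in the sources used here, and whether Ttc33 reads entered the Ptger4 counts was not tested.

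Promoter windows of 250 bases before the RefSeq start (GRCm38.p6) were read for 6 of the 7 members. Those of the 2 cyclooxygenases are shown because endothelial classes held more Ptgs1 UMIs and KPC fibroblasts more Ptgs2 UMIs, though Krt8/Krt18 cells held both. The window before the first of 2 Tbxa2r starts is shown because this receptor had a class pattern of its own. Capitals mark matches, on either strand, to any of 6 motifs. They were the core promoter element TATAAA, the box spelled CCAAT, the GC-rich box spelled GGGCGG, the E-box spelled CACGTG, the part of the cAMP response element spelled ACGTCA, and the element of many nuclear receptors spelled AGGTCA. The E-box and the cAMP element can share bases. The windows run 5′ to 3′ on the strand of the gene, which is plus for all 3.
Ptgs1, chr2:36230176-36230425: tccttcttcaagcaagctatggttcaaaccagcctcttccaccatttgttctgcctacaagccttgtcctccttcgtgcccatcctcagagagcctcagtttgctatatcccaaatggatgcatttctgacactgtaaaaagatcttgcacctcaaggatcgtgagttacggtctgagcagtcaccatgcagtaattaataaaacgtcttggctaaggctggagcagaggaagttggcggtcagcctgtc
Ptgs2, chr1:150099781-150100030: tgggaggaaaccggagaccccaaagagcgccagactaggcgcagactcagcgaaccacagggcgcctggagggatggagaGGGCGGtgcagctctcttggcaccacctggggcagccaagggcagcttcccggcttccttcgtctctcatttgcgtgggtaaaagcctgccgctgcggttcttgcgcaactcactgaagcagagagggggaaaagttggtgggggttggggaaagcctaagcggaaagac
Tbxa2r, chr10:81328018-81328267: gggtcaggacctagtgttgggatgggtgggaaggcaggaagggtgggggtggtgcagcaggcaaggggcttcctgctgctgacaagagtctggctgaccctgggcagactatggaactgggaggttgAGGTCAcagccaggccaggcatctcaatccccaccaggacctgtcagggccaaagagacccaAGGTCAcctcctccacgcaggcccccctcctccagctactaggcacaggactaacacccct

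The Ptgs1 window, which overlaps no gene model, held none of the 6 motifs and had a GC content of 48.0%, against a median of 52.4% over the 32851 RefSeq promoter windows of the same length. The Ptgs2 window, at 61.6% GC, held 1 GC box, 170 bases before the start, and overlaps an exon of the long noncoding RNA Ptgs2os. The Tbxa2r window, in no gene model, held AGGTCA 123 and 61 bases before the start, and the window before the second start held it on the other strand, with 1 CCAAT box. Among all windows 14.0% held AGGTCA and 32.7% held the GC box. The Slco2a1 window, chr9:103008237-103008486, lies inside the GENCODE gene model, overlaps an exon of Slco2a1 and is not printed. It held a TATA box 29 bases and a GC box 106 bases before the RefSeq start, and 12.4% of all windows held TATAAA. Ptges held 2 GC boxes and Ptger4 held 4, 2 of them sharing a base, with 1 CCAAT box (33.8% of windows). CACGTG and ACGTCA were in none of the 7 windows and in 6.02% and 6.47% of all windows. Bases past the annotated start were not read, so the absence of a motif holds for the window and not for the whole promoter. A match is only a run of letters, and these libraries hold no measure of binding.

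Ptgs1, the constitutive cyclooxygenase, had more UMIs than Ptgs2 in each of the 5 endothelial classes of both libraries (3′ tags, not scaled by length). In KPC its level was 127 CPM in capillary and 121 CPM in venule cells, 37.6 CPM in tip, 18.5 CPM in artery (6 UMIs) and 9.90 CPM in lymphatic cells. In PyMT it was 80.0 CPM in venule, 19.4 CPM in capillary, 15.1 CPM in tip, 6.00 CPM in lymphatic and 2.05 CPM in artery cells (1 UMI). Capillary and venule cells thus could not be told apart in KPC (log2 ratio of venule over capillary -0.08, interval -0.28 to 0.13), whereas in PyMT the venule level was 4.13-fold the capillary level (log2 2.05, 1.72 to 2.37). That the ratio differs between the models was not tested. Lymphatic cells had less Ptgs1 than capillary cells in both, by -3.68 (-4.22 to -3.19) in KPC and -1.69 (-2.52 to -0.96) in PyMT on the log2 scale.

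With each cell thinned to 2000 UMIs, a Ptgs1 UMI was found in 20.6% of venule and 19.4% of capillary cells in KPC and in 16.5% and 3.76% in PyMT. Thinning left out 700 of the 1297 KPC capillary cells, whose median was 1879 UMIs against 4254 in PyMT. In lymphatic cells the share was 1.63% in KPC and 1.64% in PyMT. Platelets and some leukocytes also use Ptgs1. The 5 platelet markers (Pf4, Ppbp, Itga2b, Gp9 and Gp1bb) summed to between 6.18 and 41.3 CPM over the KPC endothelial classes and between 9.07 and 17.3 CPM in PyMT. In KPC venule and capillary cells Pf4 was 3.415 and 8.668 CPM and Itga2b 20.15 and 9.507 CPM, with Gp1bb at 0 in both, and Itga2b was highest in venule cells among all classes. The part of platelet RNA in the Ptgs1 level was not tested. Without cells holding a UMI of Ptprc, Tyrobp, Pf4 or Ppbp the venule over capillary ratio was -0.09 in KPC and 2.06 in PyMT.

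Ptgs2, the inducible cyclooxygenase, had its highest class levels outside the 5 endothelial classes. In KPC its level was 101 CPM in fibroblasts (238 UMIs), 16.2 CPM in Krt8/Krt18 cells, 5.46 CPM in venule cells (16 UMIs), 3.96 CPM in lymphatic cells, 1.77 CPM in tip cells and 1.40 CPM in capillary cells (5 UMIs), and no UMI was seen in artery cells. In PyMT it was 28.2 CPM in Krt8/Krt18 cells (83 UMIs) and between 0.157 and 2.67 CPM in the endothelial classes in which it was seen, each on 8 or fewer UMIs, again with none in artery cells. In KPC fibroblasts gave 46.9% and Krt8/Krt18 cells 34.7% of all Ptgs2 UMIs. In PyMT Krt8/Krt18 cells gave 48.3% and cells that met no class rule 40.7%. Of the Ptgs2 UMIs in cells that met no rule, 27 of 42 in KPC and 23 of 70 in PyMT lay in cells with Pecam1 or Cdh5. The 27 KPC cells with at least 2 UMIs of Ptprc plus Tyrobp and no Pecam1 or Cdh5 were at 112 CPM (8 UMIs). All 9 KPC venule cells with Ptgs2 also held Pecam1 or Cdh5, and 1 held Dcn or Col3a1. Among KPC venule cells without Ptgs2 these shares were 97.6% and 7.29%. By contrast, 6 of the 6 PyMT tip cells with Ptgs2 held one of these fibroblast genes, against 4.08% of those without. The KPC venule level was above the capillary level by 1.97 on the log2 scale (0.45 to 3.77), on 16 and 5 UMIs. Under 9 alternatives this ratio ran from 0.43 (after thinning) to 4.27 and passed 2-fold in 3 of them, so the call was lost in most.

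Ptgis, which makes prostacyclin, was at 216 CPM in KPC fibroblasts (511 UMIs, 67.7% of all its UMIs there) and 86.4 CPM in the 28 PyMT fibroblasts (11 UMIs). Among KPC endothelial classes it was 12.0 CPM in venule cells (35 UMIs), 3.18 CPM in tip cells (27 UMIs), 1.40 CPM in capillary cells (5 UMIs), 1.13 CPM in lymphatic cells (4 UMIs) and unseen in artery cells. The venule level was above the capillary level by 3.10 on the log2 scale (1.74 to 4.80). The call was kept in 7 of the 8 alternatives that gave a ratio. It was lost after thinning, where the ratio was 3.97. With 35 and 5 UMIs, Ptgis was also not compared under a minimum of 100 UMIs. In PyMT the endothelial classes held 15 UMIs in all. Ptgis was at 6.15 CPM in artery cells (3 UMIs) and at 4.67 CPM in venule cells (7 UMIs, 3 of them in 1 cell). The intervals of these classes overlap.

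Fibroblast RNA was present beside Ptgis in endothelial classes, and the counts of both are given here. KPC fibroblasts held 7.27 Ptgis UMIs for every 100 UMIs of the fibroblast gene Dcn. The value was 36.5 in venule cells (35 and 96 UMIs), 38.6 in tip cells (27 and 70), 12.2 in capillary cells (5 and 41) and 0.763 in lymphatic cells (4 and 524). Per 100 UMIs of Col3a1, a collagen gene, they were 2.18 in fibroblasts, 68.6 in venule, 21.1 in tip, 5.43 in capillary and 3.604 in lymphatic cells. Venule, tip and capillary cells were thus above fibroblasts by both references and lymphatic cells by Col3a1 only. Lymphatic cells, however, held 524 UMIs of Dcn and 111 of Col3a1, against 7025 and 23440 in fibroblasts. The references thus stood in unlike proportion there, and the source of the lymphatic Dcn was not tested. The part of fibroblast RNA in the Ptgis values was not tested. All 28 KPC venule cells with Ptgis held Pecam1 or Cdh5, as did 97.5% of those without Ptgis. Dcn or Col3a1 was in 4 of the 28 (14.3%), against 7.03% of those without Ptgis. Among the 28, 3 held Msln or Upk3b, which mark mesothelium. In this library Msln was highest in Krt8/Krt18 cells, at 262 CPM against 5.122 CPM in venule cells. Per the methods, cells positive for podoplanin or EpCAM, among other lineage markers, were depleted before the sort. The KPC library still held Krt8/Krt18 cells, whose epithelial markers summed to 4558 CPM. Whether the depletion removed mesothelium was not tested. The 4 mesothelial markers summed to 9.56 CPM in KPC venule cells against 0 to 1.41 CPM in the other endothelial classes. Their part in the venule value was not tested.

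Ptges, the terminal enzyme of inducible prostaglandin E2 synthesis, was likewise in fibroblasts (56.3 CPM, 133 UMIs in KPC) and Krt8/Krt18 cells (9.19 CPM in KPC and 13.2 CPM in PyMT). In KPC it had 0 UMIs in capillary, venule and artery cells, which allows up to 0.839, 1.02 and 9.27 CPM if a count of 0 is read as at most 3 UMIs. The exact lower limit of the KPC fibroblast over capillary ratio was 5.75 on the log2 scale. In PyMT Ptges was 4.67 CPM in venule cells (7 UMIs) and 0.394 CPM in capillary cells (5 UMIs). It was 0.375 CPM in lymphatic cells (1 UMI) and 0.231 CPM in tip cells (3 UMIs). The PyMT venule over capillary ratio was 3.57 on the log2 scale (1.70 to 5.57). It rests on fewer UMIs than the minimum used below for comparing members. The 7 venule UMIs lay in 7 different cells.

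**Figure D1:**
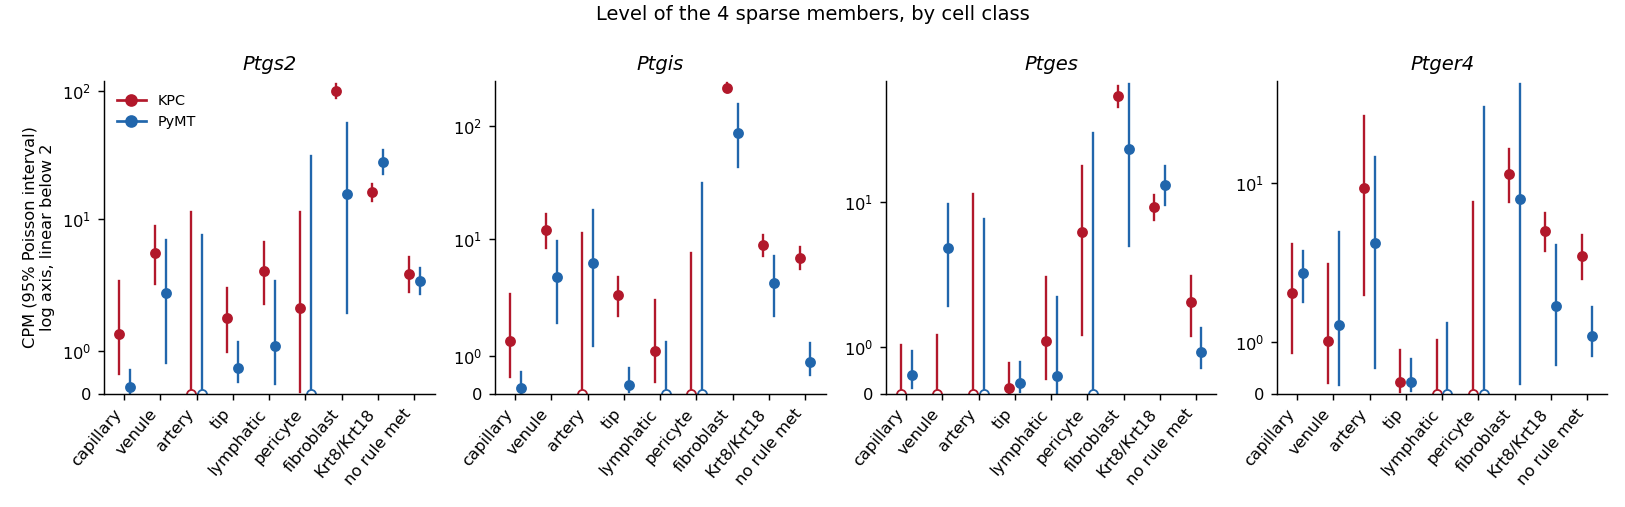
Level of Ptgs2, Ptgis, Ptges and Ptger4 in CPM (log axis, linear below 2) in each cell class of the KPC and PyMT libraries, with bars for the 95% Poisson interval and open points for 0 UMIs. The KPC fibroblast points stand highest for all 4 genes, while the endothelial classes lie at or below 12.0 CPM.

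Slco2a1, the prostaglandin transporter, was highest among the endothelial classes in venule cells of both libraries and lowest in artery and lymphatic cells. In KPC it was 601 CPM in venule cells (574 to 630), 342 CPM in capillary, 128 CPM in tip, 55.6 CPM in artery and 50.9 CPM in lymphatic cells. In PyMT it was 215 CPM in venule cells (192 to 239), 99.4 CPM in capillary, 48.2 CPM in tip, 34.9 CPM in lymphatic and 20.5 CPM in artery cells. The order venule, capillary, tip held in both, and each step left out equality. Artery and lymphatic cells could not be told apart in KPC. The artery value there rests on 18 UMIs, of which 9 came from 1 cell. Without that cell, a choice made after seeing the data, the level was 28.6 CPM (13.1 to 54.3).

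Venule cells had 1.76-fold the capillary level in KPC (log2 0.81, 0.71 to 0.92) and 2.16-fold in PyMT (log2 1.11, 0.93 to 1.29). When each cell was given equal weight the KPC log2 ratio was larger, at 1.47. Tip cells were lower than capillary cells by -1.42 (-1.54 to -1.30) and -1.04 (-1.19 to -0.91), and lymphatic cells by -2.75 (-2.98 to -2.52) and -1.51 (-1.83 to -1.21). After thinning, 61.7% of KPC and 31.2% of PyMT venule cells held a Slco2a1 UMI, against 42.9% and 16.0% of capillary cells and 17.2% and 7.47% of tip cells. Krt8/Krt18 cells of KPC, which carry the epithelial markers, were at 3.05% after thinning and 17.6 CPM.

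**Figure D2:**
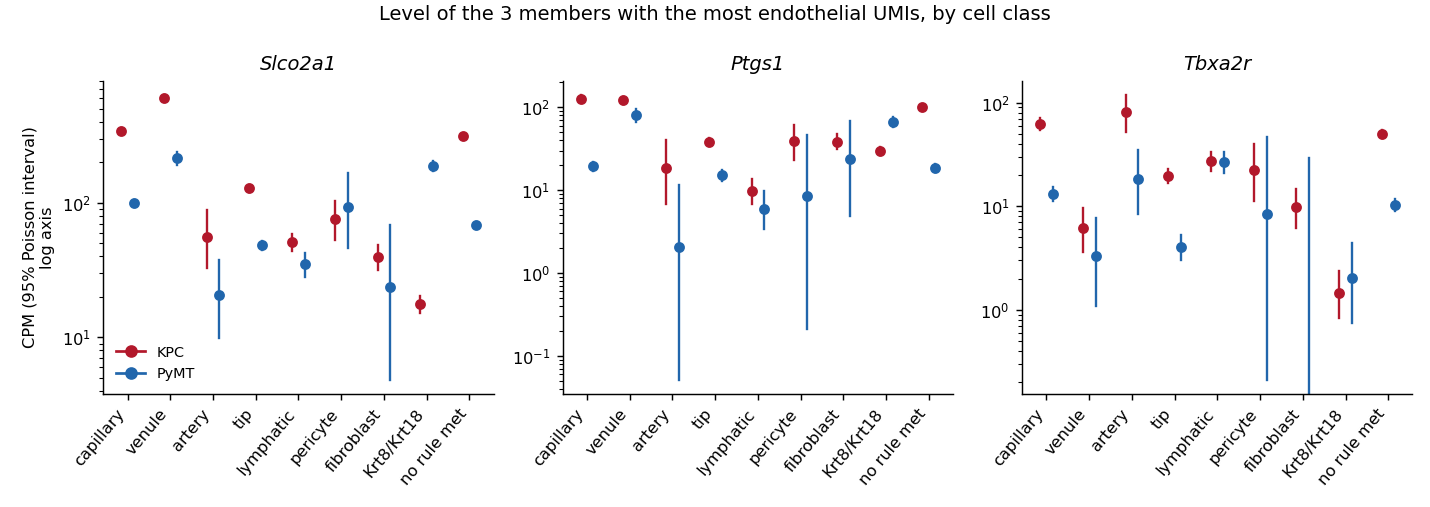
Level of Slco2a1, Ptgs1 and Tbxa2r in CPM (log axis) in each cell class of the KPC and PyMT libraries, with bars for the 95% Poisson interval. Slco2a1 is highest among the endothelial classes in venule cells of both libraries (601 and 215 CPM), where Tbxa2r is lowest in KPC (6.15 CPM).

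Slco2a1 also stood high in PyMT cells that are not endothelial by their markers. Krt8/Krt18 cells of that library had 187 CPM (551 UMIs) of Slco2a1 and 67.2 CPM (198 UMIs) of Ptgs1, both near the venule levels of 215 and 80.0 CPM. Their pan-endothelial markers summed to 424 CPM, against 3042 CPM in PyMT venule cells. PyMT cells that met no class rule and held neither Pecam1 nor Cdh5 gave a like pair of values, 135 CPM (115 to 158) of Slco2a1 and 59.9 CPM of Ptgs1 over 405 cells. The 369 such cells of KPC had 94.5 CPM of Slco2a1 and 63.0 CPM of Ptgs1. KPC Krt8/Krt18 cells differed, with Slco2a1 lower than in PyMT by -3.41 on the log2 scale (-3.66 to -3.17).

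Slco2a1 was also read by the number of Ackr1 plus Selp UMIs in a cell, the sum that defines the venule class. Among cells outside the Krt8/Krt18, fibroblast, lymphatic and pericyte classes, the KPC level was 220 CPM with no Ackr1 or Selp UMI, 394 CPM with 1, 437 CPM with 2 (just outside the venule threshold), 454 CPM with 3 (just inside), 575 CPM with 4 to 7 and 740 CPM with 8 or more. In PyMT the same steps were 63.1, 145, 161, 198, 224 and 220 CPM, and the intervals of the last 3 overlap. Tbxa2r went the other way in KPC, from 45.2 CPM with no such UMI to 5.06 CPM with 8 or more. In PyMT it was 9.70, 7.95, 1.03, 2.07, 1.56 and 7.95 CPM, the last 4 steps on 3 or fewer UMIs each, and the first and last intervals overlap. Cells without venule UMIs were also shallower in KPC, with a median of 2347 UMIs against 4186 at 2 UMIs.

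**Figure D3:**
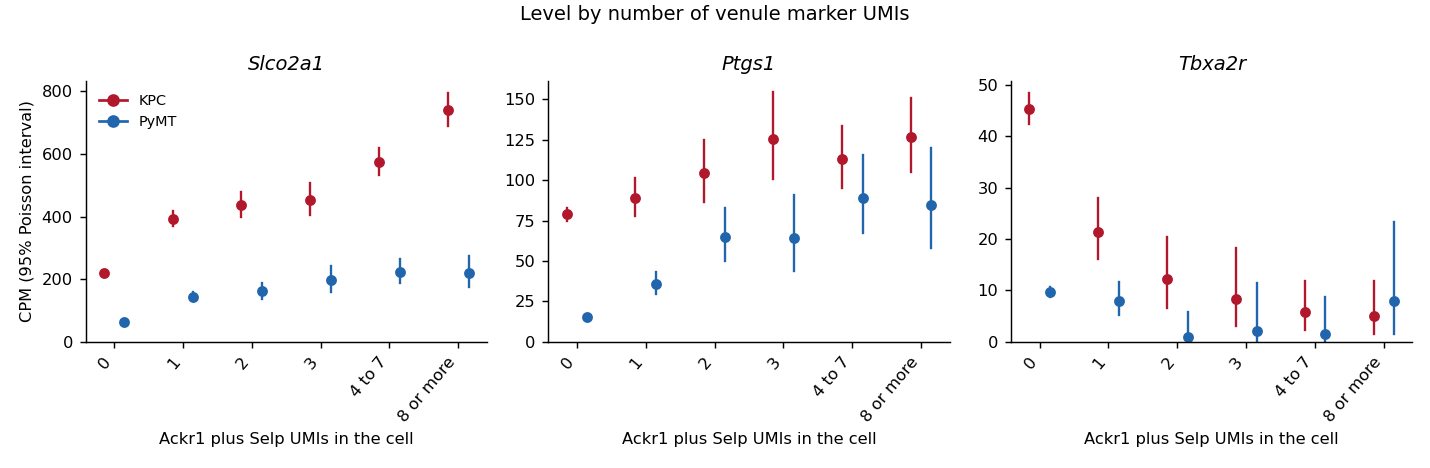
Level of Slco2a1, Ptgs1 and Tbxa2r in CPM (linear axis) against the number of Ackr1 plus Selp UMIs in the cell, KPC and PyMT, with bars for the 95% Poisson interval. In KPC Slco2a1 goes from 220 to 740 CPM and Tbxa2r from 45.2 to 5.06 CPM.

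Slco2a1 and Ptgs1 tended to occur in the same cells, though not within the capillary class. In thinned endothelial cells of KPC, 18.4% (15.8 to 21.2) of cells with Slco2a1 held a Ptgs1 UMI against 7.91% (6.81 to 9.11) of cells without it, and in PyMT 7.97% (5.99 to 10.3) against 3.32% (2.82 to 3.88). Within tip cells the pair was 12.7% against 6.35% in KPC and 8.28% against 2.56% in PyMT, and within venule cells 23.7% against 15.7% and 23.6% against 13.3%, where the intervals overlap. Within capillary cells it was 18.8% against 19.9% in KPC and 4.50% against 3.62% in PyMT. No thinned endothelial cell held both Ptgs1 and Ptgis, among 330 Ptgs1-bearing cells in KPC and 202 in PyMT (Ptgis was in 23 of 2719 and 3 of 4987 cells without Ptgs1), which allows shares of up to 1.11% and 1.81% (upper exact bounds).

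Tbxa2r, the thromboxane receptor, had its lowest endothelial level in venule cells. In KPC it was 80.4 CPM in artery cells (26 UMIs), 62.4 CPM in capillary, 27.1 CPM in lymphatic, 19.5 CPM in tip and 6.15 CPM in venule cells (18 UMIs). In PyMT it was 26.6 CPM in lymphatic, 18.5 CPM in artery (9 UMIs), 13.1 CPM in capillary, 4.07 CPM in tip and 3.33 CPM in venule cells (5 UMIs). Artery and capillary cells could not be told apart in either library, nor lymphatic from artery or tip from venule cells in PyMT. Venule cells were below capillary cells by -3.34 (-4.12 to -2.65) in KPC and -1.97 (-3.61 to -0.72) in PyMT on the log2 scale, and tip cells by -1.68 in both (-1.98 to -1.38 and -2.16 to -1.23).

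The lymphatic level of Tbxa2r was nearly the same in both libraries (27.1 and 26.6 CPM) while its capillary level was not (62.4 and 13.1 CPM). Lymphatic cells were therefore below capillary cells in KPC, by -1.20 (-1.56 to -0.85), and above them in PyMT, by 1.03 (0.60 to 1.44). After thinning, a Tbxa2r UMI was in 12.1% of KPC and 2.49% of PyMT capillary cells and in 5.20% and 5.32% of lymphatic cells. In Krt8/Krt18 cells it was in 0 of 788 thinned cells in KPC, which allows a share of up to 0.467% (upper exact bound), and in 1 of 377 in PyMT. Before thinning, 15 of 794 such KPC cells held a Tbxa2r UMI. Their medians were 12688.5 UMIs in KPC and 6939 in PyMT, deeper than the capillary cells, so these shares are no clean measure of free RNA.

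Ptger4, the EP4 receptor for prostaglandin E2, was sparse. It reached 33 UMIs in PyMT capillary cells (2.60 CPM), 7 in KPC capillary cells (1.96 CPM), and 3 or fewer in each venule, artery and tip class. It had 0 UMIs in lymphatic cells of both libraries, which allows up to 0.848 CPM in KPC and 1.12 CPM in PyMT. By CPM the artery class was the highest endothelial class, at 9.27 CPM in KPC (3 UMIs) and 4.10 CPM in PyMT (2 UMIs). The artery and capillary intervals overlap in both libraries. PyMT tip cells were lower than capillary cells by -3.49 on the log2 scale (-5.84 to -1.82). In KPC fibroblasts it was 11.4 CPM (27 UMIs) and in KPC Krt8/Krt18 cells 4.87 CPM (53 UMIs).

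**Figure D4:**
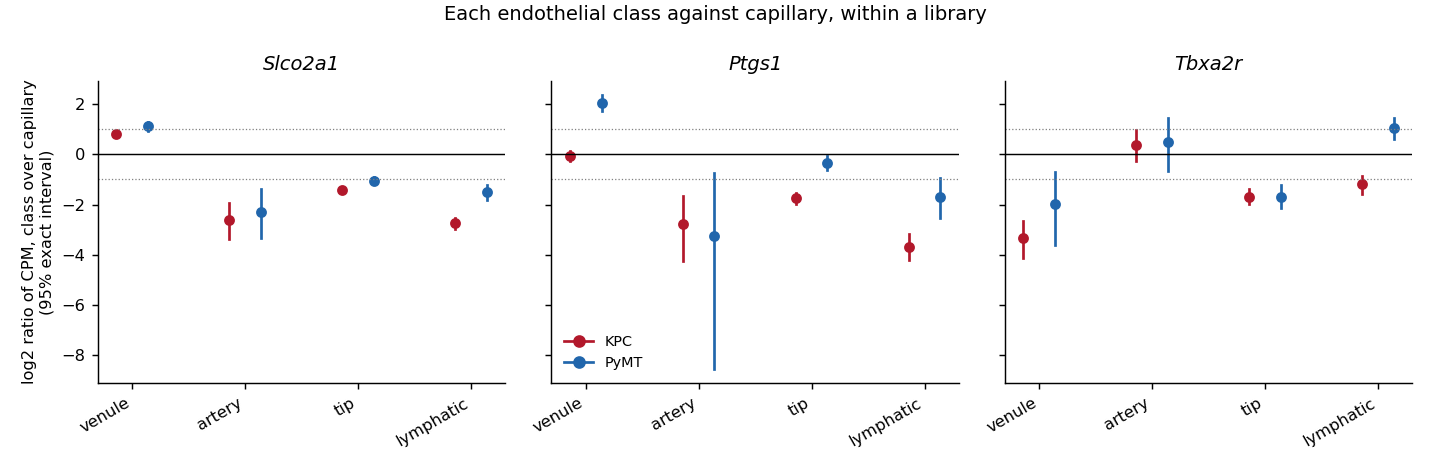
Log2 ratio of CPM of venule, artery, tip and lymphatic cells over capillary cells within each library for Slco2a1, Ptgs1 and Tbxa2r, with 95% exact intervals, a line at 0 and dotted lines at 2-fold. Tip cells lie below 0 for all 3 genes in both libraries, and Tbxa2r in lymphatic cells is below 0 in KPC (-1.20) and above it in PyMT (1.03).

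A member was counted as past 2-fold when its ratio reached 2-fold with an interval leaving out 0. It was compared only with at least 20 UMIs over both classes. Sparse members such as Ptgs2, Ptgis and Ptger4 reached this minimum mainly through a single class. Venule against capillary, 3 of 5 members compared were past 2-fold in KPC (Ptgs2, whose call was lost under most alternatives, and Ptgis higher, Tbxa2r lower) against 8.85% of all genes, and 3 of 4 in PyMT (Ptgs1 and Slco2a1 higher, Tbxa2r lower) against 6.06%. Tip against capillary, 3 of 5 were lower in KPC (10% of all genes past 2-fold in either direction) and 3 of 4 in PyMT (2.33%), Slco2a1 and Tbxa2r in both, with Ptgs1 in KPC and Ptger4 in PyMT. Artery against capillary, Ptgs1 and Slco2a1 were lower in both libraries, 2 of 3 compared in KPC (9.14%) and 2 of 4 in PyMT (9.52%). Lymphatic against capillary, Ptgs1, Slco2a1 and Tbxa2r were lower in KPC, 3 of 3 compared (19.8%), and in PyMT Ptgs1, Slco2a1 and Ptger4 were lower and Tbxa2r higher, 4 of 4 (15.7%).

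Between the libraries, where at least 20 UMIs were compared, Slco2a1 was higher in KPC in all 5 endothelial classes by intervals leaving out 0. By the same standard Ptgs1 was higher in KPC capillary, tip and venule cells, and Tbxa2r in KPC capillary, tip and artery cells. The lymphatic Slco2a1 and venule Ptgs1 ratios were under 2-fold. In capillary cells Ptgs1 was 127 CPM in KPC and 19.4 CPM in PyMT (log2 2.72, 2.49 to 2.95), Slco2a1 342 and 99.4 CPM (1.78, 1.67 to 1.90) and Tbxa2r 62.4 and 13.1 CPM (2.25, 1.96 to 2.55). These 3 of the 4 members compared were past 2-fold, against 14.5% of all genes, whose median log2 ratio was 0.14. The exception was Ptger4 at -0.41 (-1.83 to 0.79). The capillary rule is a fixed UMI count, and KPC capillary cells were shallower, with a median of 1879 UMIs against 4254 in PyMT. Their further capillary markers summed to 4578 CPM, above the PyMT sum given earlier. The part of this difference between the classes in the ratios was not tested. In tip cells 5 of 5 compared were past 2-fold, all higher in KPC. Of all genes 6.88% passed in either direction, with 546 of 11398 higher. Tbxa2r was at 2.26, Slco2a1 at 1.41 and Ptgs1 at 1.32. Ptgis (27 and 3 UMIs) and Ptgs2 (15 and 8 UMIs) rest on few counts and reached 20 UMIs mainly through KPC. Ptges and Ptger4 fell short of 20 UMIs, so the count of 5 leans on the minimum. In venule cells 2 of 5 were past 2-fold, both higher in KPC, against 4.99%: Slco2a1 at 1.49 (1.31 to 1.66) and Ptgis at 1.36 (0.16 to 2.77). Ptgs1 was at 0.59 (0.29 to 0.90) there, Tbxa2r at 0.88 (-0.60 to 2.67), and Ptgis fell to 0.10 with doubled class thresholds. In artery cells 2 of 2 were past 2-fold, against 7.21%, Slco2a1 on 18 and 10 UMIs and Tbxa2r on 26 and 9. Without cells that met several class rules the Slco2a1 ratio there was 0.14 in place of 1.44. In lymphatic cells 0 of 3 were, against 3.7%, with Tbxa2r at 0.03 (-0.43 to 0.49) and Slco2a1 at 0.55 (0.18 to 0.92).

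**Figure D5:**
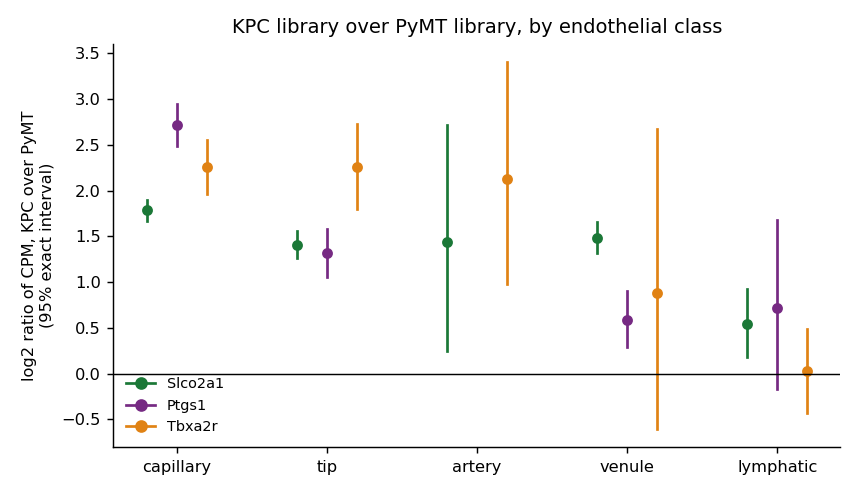
Log2 ratio of CPM of the KPC over the PyMT library in each endothelial class for Slco2a1, Ptgs1 and Tbxa2r where a member reached 20 UMIs, with 95% exact intervals. Ratios in capillary cells run from 1.78 to 2.72 and those in lymphatic cells from 0.03 to 0.72.

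Other genes of the pathway, 35 of a list of 36 symbols, were compared where they reached 20 UMIs, which left between 14 and 16 of them in each class against capillary cells. Against capillary cells, 1 was past 2-fold higher and none lower in KPC venule cells (of 14, median log2 -0.08 against -0.05 over all genes, of which 8.85% passed), and 3 higher and 1 lower in PyMT (of 16, median 0.07 against 0.04, with 6.06% of all genes). The gene common to both was Slco3a1, another organic anion transporter that carries prostaglandins, at 204 against 71.0 CPM in KPC (log2 1.52) and 80.0 against 9.13 CPM in PyMT (log2 3.13). The others in PyMT were Slco2b1, a further carrier of that family, at 1.19, Ptgfrn, an inhibitor of the prostaglandin F receptor, at 1.28, and Pla2g6, a phospholipase, at -1.45. In artery cells 1 was higher and 1 lower in KPC and 2 higher in PyMT (Ptgr2, a prostaglandin reductase, in both), of 14 and 15 compared, with medians of -0.23 and -0.27 against -0.03 and 0.06 over all genes, of which 9.14% and 9.52% passed. In tip cells 1 was lower in KPC (Slco2b1, -1.79) and 1 higher in PyMT (Slco4a1, 1.37), of 16 each, against 10% and 2.33% of all genes.

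In lymphatic cells 4 pathway genes were higher and 3 lower of 15 compared in KPC, against 19.8% of all genes past 2-fold, and 4 higher and 2 lower of 16 in PyMT, against 15.7%, with medians of 0.10 and 0.00 against 0.03 and 0.09 over all genes. The 4 higher genes were the same: Slco3a1 (1.38 and 3.89), Ptgfrn (2.10 and 3.17), Ptgr1, a reductase that inactivates prostaglandins (3.76 and 1.31), and Fam213b, a prostaglandin F synthase (1.08 and 1.79). Lower in both were Abcc4, an exporter of prostaglandins (-2.23 and -1.89), and Cbr3, a carbonyl reductase (-3.64 and -3.28), joined in KPC by Slco2b1 (-1.73). Ptges3 and Akr1b3, broadly expressed genes with prostaglandin synthase activity, had 3556 and 2541 UMIs in KPC endothelial classes and 7054 and 4279 in PyMT and passed 2-fold in no endothelial class. Between the libraries, Slco3a1 (2.96), Slco2b1 (1.87) and Ptgfrn (1.78) were higher and Ptgr1 (-2.04) lower in KPC capillary cells, 4 of 15 compared against 14.5% of all genes, with a median of 0.37 against 0.14 over all genes. Slco3a1 was also higher in KPC venule, artery and tip cells (1.35, 1.66 and 2.50). Pathway genes past 2-fold there, all higher, numbered 2 of 14, 1 of 8 and 2 of 16, against 4.99%, 7.21% and 6.88% of all genes. In lymphatic cells 0 of 15 passed 2-fold, against 3.7% of all genes.

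The remaining prostanoid receptors were near the limit of detection in endothelium, with Ptger1 at 6, Ptger2 at 4, Ptger3 at 3, Ptgfr at 2, Ptgir at 5 and Ptgdr and Ptgdr2 at 0 UMIs over the KPC endothelial classes.

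Over the 16 points given by classes with at least 50 cells in either library, the level of Slco2a1 followed that of Ptgs1 (Pearson r = 0.85 on log2(CPM + 5)), and Ptgs2 followed Ptges (0.93) and Ptgis (0.84). The points share 2 libraries and differ in depth, so these are descriptions. Among these points Ptgs2 was above 5.46 CPM only in KPC fibroblasts and in Krt8/Krt18 cells, so its r values lean on those points. Of 9459 other genes, Klk8 was the most like both Slco2a1 (0.92) and Ptgs1 (0.83), followed by Nav2 and D16Ertd472e for Slco2a1 and Nuak2 and 3110043O21Rik for Ptgs1. Klk8 was 42.7 CPM in KPC and 20.0 CPM in PyMT venule cells, 24.4 CPM in PyMT Krt8/Krt18 cells and 1.38 CPM in KPC Krt8/Krt18 cells. Ssu2 was the most like Tbxa2r (0.94), followed by Nat6 and Gsk3b, with 58.7 CPM in KPC artery, 47.0 CPM in KPC capillary and 0 UMIs in KPC venule cells. Il33, Inhba and Runx1 were the most like Ptgs2 (0.95, 0.94 and 0.92) and Gpm6b, Mt2 and Runx1 the most like Ptges (0.93 each). Mfap5, Saa3 and Ccng1 were the most like Ptgis (0.91, 0.90 and 0.90) and Erlec1, Plpp5 and S100a1 the most like Ptger4 (0.89, 0.86 and 0.84). Few UMIs lie behind the Ptger4 values, with 3 at the KPC artery point (9.27 CPM) and 2 at the PyMT artery point (4.10 CPM). The Ptgis values lean on the KPC fibroblast point, at 216 CPM of Ptgis against 12.0 CPM or less elsewhere. Mfap5 was 1665 CPM there against 17.2 CPM or less, and Ccng1 110 CPM against 43.3 CPM or less.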

How the data were processed

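Per the labels, header and methods, the authors aligned reads to mm10 with Cell Ranger (3.0, 3.0.2 in the matrix header) and deposited UMI counts per gene and barcode, unnormalized and with contaminating cells kept. The labels name the v2 3′ kit and the methods also name v3. Everything else was computed here (Python 3.11.15, NumPy 2.4.6, SciPy 1.17.1, pandas 2.3.3).

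Barcodes below 500 genes, or with 10% or more of their UMIs mitochondrial, were dropped. Classes were given in this order by UMI sums: Krt8 plus Krt18 at least 5, Col1a1 plus Col1a2 at least 10 (fibroblast), Mmrn1 plus Prox1 at least 3 (lymphatic), Notch3 plus Higd1b at least 2 (pericyte), Ackr1 plus Selp at least 3 (venule), Gja5 plus Sema3g at least 2 (artery), Apln plus Angpt2 at least 3 (tip) and Car4 plus Cd300lg at least 2 (capillary). Levels are CPM of UMIs summed over a class, not divided by length, since 3′ tags were counted. Intervals are Poisson for levels, exact binomial for shares and exact conditional for ratios. Only the ratio intervals and the 2-fold rule were tested on simulated counts, which were Poisson and held no spread between cells. No doublet caller was run, and doublets were not removed. Shares were compared after thinning each cell to 2000 UMIs (seed 1). Named besides the members are pathway genes with at least 100 endothelial UMIs in either library or past 2-fold in a class, and the 3 genes most correlated with each member among genes with at least 200 UMIs in each library. The members, the pathway list and the class rules were chosen with earlier results of these data known.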

Additional observations from a re-analysis of the deposited data

Results flagged for a closer look

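The lymphatic over capillary ratio of Tbxa2r drew attention because it pointed in opposite directions in the 2 tumor models, at -1.20 in KPC and 1.03 in PyMT on the log2 scale, with intervals on opposite sides of 0. With 1 library per model the difference was not tested. It kept both signs under each of the 9 alternatives tried on ratios, between -1.37 and -0.99 in KPC and between 0.95 and 1.86 in PyMT. The PyMT capillary class stood out little by its further markers, and the lymphatic class is what the podoplanin depletion left. The part of either in the result was not tested. Cells with at least 2 UMIs of Mki67 plus Top2a had less Tbxa2r than the rest in both classes and both libraries, and without them the ratios were -0.99 in KPC and 1.07 in PyMT.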

How the results depend on the processing

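Each of 13 counts of members past 2-fold was computed under 10 alternatives, and 112 of the 130 values stayed within 1.5 times the main count. For KPC over PyMT the artery count of 2 became 0 with a minimum of 100 UMIs, thinning or doubled class thresholds and 1 with the stricter barcode filter (1000 genes, 5% mitochondrial), without cells meeting several class rules or without cycling cells. The tip count of 5 became 3 with a minimum of 100 UMIs, thinning, doubled thresholds, without the 8% deepest barcodes or without cycling cells. The venule count of 2 became 1 with a minimum of 100 UMIs, thinning, doubled thresholds or without cells meeting several rules. The KPC venule over capillary count of 3 became 1 with a minimum of 100 UMIs or thinning, and the PyMT artery over capillary count of 2 became 1 with doubled thresholds. A minimum of 100 UMIs and thinning leave fewer members to compare, and for the other changes the cause was not tested. No ratio with an interval leaving out 0 changed sign. Slco2a1 in KPC venule over capillary cells ran from 0.60 to 1.47 and passed 2-fold under 3 of 9 alternatives, Ptgs2 in the same comparison ran from 0.43 to 4.27 and also passed under 3 of 9, and Slco2a1 in KPC over PyMT artery cells was 0.14 without cells meeting several rules. Few UMIs limit Ptgs2, Ptgis, Ptges and Ptger4 in endothelium, and only large differences were detectable there at this depth. No paired analysis was possible because each tumor model has 1 library.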

Other observations

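Tbxa2r was lower in cycling cells, those with at least 2 UMIs of the proliferation genes Mki67 and Top2a, than in the rest of the class among lymphatic and capillary cells. In lymphatic cells it was 12.1 against 33.7 CPM in KPC (log2 -1.48, -2.45 to -0.63) and 12.7 against 31.7 CPM in PyMT (-1.32, -2.52 to -0.30), in capillary cells 38.1 against 67.0 CPM (-0.82, -1.52 to -0.18) and 6.38 against 15.1 CPM (-1.24, -2.02 to -0.55). In tip cells it was 20.0 against 19.2 CPM in KPC and 2.73 against 4.85 CPM in PyMT, with intervals that include 0. Slco2a1 was lower in cycling venule cells of KPC, 361 against 691 CPM (-0.94, -1.13 to -0.75), and in cycling lymphatic cells of KPC, 29.7 against 60.2 CPM (-1.02, -1.62 to -0.46). In PyMT venule cells it was 182 against 224 CPM with an interval that includes 0, and it was higher in cycling tip cells of PyMT, 57.7 against 42.7 CPM (0.43, 0.20 to 0.67). Ptgs1 was lower in cycling venule cells of KPC (-0.67, -1.07 to -0.28) and of PyMT (-0.80, -1.64 to -0.05). Cycling cells were deeper, with medians of 6248 against 1801 UMIs in KPC capillary cells and 6689.5 against 3949 in PyMT, and the part of depth in these values was not tested.

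Several receptors near the limit of detection in endothelium were higher in KPC fibroblasts. Ptger3, an EP receptor coupled to lowered cAMP, was 61.8 CPM there (146 UMIs, 52.2 to 72.7), Ptger2 9.74 CPM (23 UMIs) and Ptgir, the prostacyclin receptor, 8.47 CPM (20 UMIs), against 3, 4 and 5 UMIs over the KPC endothelial classes. Ptgfr had 11 UMIs, Ptger1 4, and Ptgdr and Ptgdr2 0 in these fibroblasts. The phospholipase Pla2g4a, which frees arachidonic acid, was 33.0 CPM in KPC fibroblasts and 20.9 and 36.3 CPM in Krt8/Krt18 cells of KPC and PyMT, against 27 and 22 UMIs over all endothelial classes.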
